A study of Mus musculus with 12 samples.

Results

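The amino acid transporter genes described here are those whose symbols start with Slc1a, Slc6a, Slc7a, Slc36a, Slc38a or Slc43a in the array annotation, without Slc1a5, Slc7a1, Slc7a2, Slc7a11, Slc6a4 and Slc43a2. The rule named 61 genes before those 6 were left out, and 55 remained of 18193 genes with a probe set that named a single gene. Of the 55, 52 code for carriers and 3 (Slc7a6os, Slc36a1os and Slc6a19os) are genes on the opposite strand that only share the name of a neighbouring carrier. The rule itself used no measured value, but it was set with earlier results of these data known. Each gene was read from 1 probe set, the one with the highest mean over all arrays.

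RNA was measured on 12 Affymetrix mouse genome arrays, 3 in each of 4 groups of bone marrow-derived macrophages (BMDM), cells grown from mouse marrow with the growth factor M-CSF. WT cells came from mice of the strain labelled C57BL6, and Nos2-/- cells came from mice without a working gene for inducible nitric oxide synthase, the enzyme that makes nitric oxide from arginine; their strain is not in the labels. Untreated cells of both genotypes received vehicle, and stimulated cells received LPS at 100 ng/mL with IFNγ at 50 ng/mL for 8 h. The titles call the arrays biological replicates without saying whether each came from its own mouse, so the p-values measure the spread between these 3 cultures. Nos2-/- is a germline deletion, so every cell carried it during differentiation as well as during stimulation. Values are log2 RMA signals, on which 1 unit is a doubling. Array medians over all probe sets lay between 5.14 and 5.21, and arrays of a group correlated at 0.996 or more. The Nos2 probe set gave 5.50 ± 0.14 in untreated and 9.73 ± 0.09 in stimulated WT cells, against 5.31 ± 0.14 and 7.69 ± 0.22 in Nos2-/- cells (mean ± SD, n = 3). Whether this probe set lies in the deleted part is not known from the files, so the remaining signal does not check the labels by itself. All 8 macrophage markers were above background, with a median of 13.02 in untreated and 12.8 in stimulated WT cells. Of the markers of other cells, 4 of 7 for neutrophils passed that level, led by Ngp with a highest group mean of 8.34, as did 1 of 5 for T and NK cells, 1 of 4 for B cells, 1 of 6 for stroma, 1 of 3 for erythroid cells and 0 of 5 for mast cells and basophils. Camp, another neutrophil gene, gave 6.27 in untreated and 7.09 in stimulated WT cells, and the stromal gene Dcn gave 4.62 and 5.58. These were the largest rises of their lists in WT cells. The median of the neutrophil markers was 5.32 in untreated and 5.37 in stimulated WT cells, with Ltf at 6.33 and 6.25. For the stromal markers the median was 4.05 and 4.22. The part of such cells in the results was not tested. In cultures measured as a whole, fewer cells of a type and less RNA per cell cannot be told apart.

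Amino acids cross membranes on carriers with overlapping substrates. The Slc38 family holds the sodium-coupled carriers of glutamine and other small neutral amino acids, including the system A carriers that cells raise when amino acids run short. Many Slc7 proteins are light chains that reach the cell surface only when joined to a heavy chain, Slc3a2 or Slc3a1, and they exchange large neutral or cationic amino acids. Slc6 proteins use sodium and chloride to carry amino acids, taurine, creatine and neurotransmitters. Slc1 proteins carry glutamate or small neutral amino acids. Slc36 proteins work at the cell surface and on lysosomes, most of them driven by protons, and Slc43 proteins carry large neutral amino acids or, for Slc43a3, purine bases. In macrophages amino acid carriers supply the arginine that NOS2 uses and the glutamine that feeds the TCA cycle. Which carriers do so, those described here or those left out by the rule, was not measured.

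RMA values have no detection call, so background was set from 74 olfactory, vomeronasal and taste receptor genes, as the 95th percentile of their highest group mean, a log2 signal of 5.373. By this measure 25 of the 55 genes stayed at background in all 4 groups and 30 were above it in at least 1. Over all genes, 36.8% were at or under the level. Background genes were 12 of 20 in Slc6, 6 of 13 in Slc7, 4 of 6 in Slc1, 2 of 9 in Slc38 and 1 of 5 in Slc36, and both Slc43 genes were above it. The brightest probe set in each family belonged to Slc6a6 (mean log2 signal over all arrays 12.77), Slc38a2 (10.95), Slc7a8 (10.14), Slc36a4 (9.13), Slc1a4 (6.12) and Slc43a3 (5.43). Signals of different probe sets depend on their probes as well as on the transcript, so these values are not an order of abundance. All 55 genes stayed in the fit and the counts below, whatever their level.

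After stimulation the main system A genes, part of the light chains of Slc7 and the taurine carrier were lower in both genotypes. Over all 55 genes more rose than fell, by smaller amounts, but not among the 30 genes above background. In WT cells 15 of the 55 genes rose and 10 fell at an adjusted p under 0.05, by limma's moderated test with Benjamini-Hochberg adjustment over all 18193 genes. Over all genes 29.6% rose and 28.4% fell in that comparison, so 27.3% of these genes rising lay near the background and 18.2% falling lay under it. In Nos2-/- cells 13 rose and 10 fell, beside 26.3% and 28.2% of all genes. The median log2 fold change of the 55 genes was 0.12 in WT and 0.06 in Nos2-/- cells, against 0.08 and 0.05 over all genes. The same 10 genes fell in both genotypes, 9 rose in both, 6 rose past the threshold in WT cells alone, 4 in Nos2-/- cells alone and 26 in neither, and no gene was called in opposite directions. Among the 30 genes above background, 9 rose (30.0%) and 10 fell (33.3%) in WT cells. In Nos2-/- cells 6 of them rose (20.0%) and 10 fell (33.3%). The shares over all genes given above include genes at background. All 10 that fell were above background in at least 1 group, while 4 of the 9 that rose in both were at background. After stimulation Slc43a3 in both genotypes, Slc36a2 in Nos2-/- cells and Slc7a6os in WT cells had means under the level. Called falls reached -1.48 in log2 fold change and called rises 0.64.

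**Figure D1:**
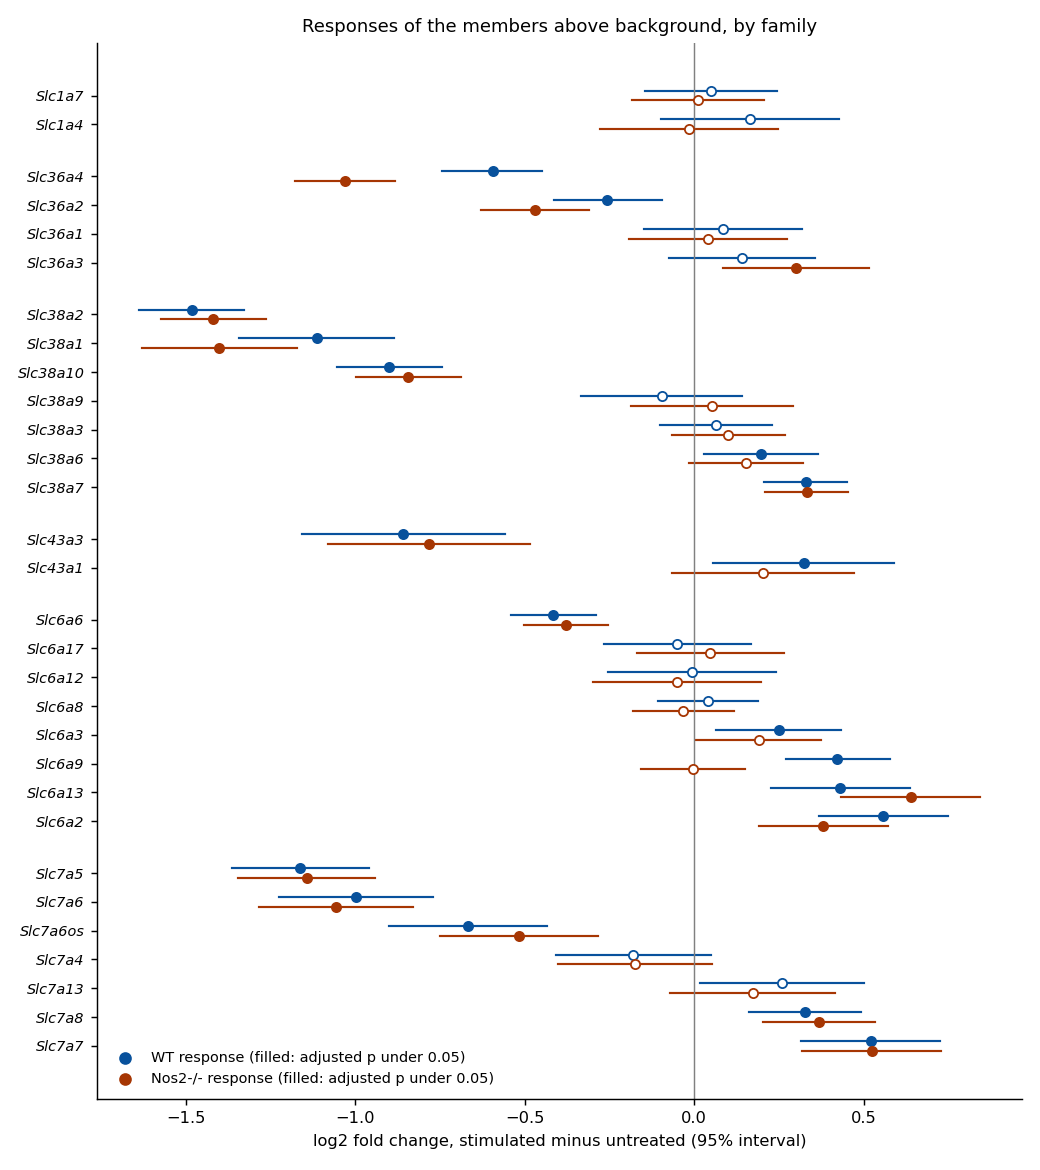
Log2 fold change (stimulated minus untreated) of the 30 genes above background, grouped by family, with the 95% interval of the limma fit; blue is WT, brown is Nos2-/-, and filled points have an adjusted p under 0.05. The falls reach about -1.5 and lie mostly in Slc38, Slc7 and Slc36, and the called rises end at 0.64.

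The RefSeq promoter windows (GRCm38.p6, 250 bases before to 50 after a start site) of 3 genes are shown because the results turn on them. Slc36a4 and Slc6a9 were the genes called between the stimulated genotypes, and Slc38a2 had the largest fall from the probe sets used. They were searched on both strands for the NF-kB consensus, CARE (TGATGNAA, read by ATF4 when amino acids run short) and the core of the antioxidant response element (ARE; TGACNNNGC, read by NRF2). Capitals mark a match. Slc36a4 lies at chr9:15709488-15709787 on the plus strand and Slc38a2 at chr15:96699679-96699978 on the minus strand. Slc6a9 has 3 listed starts; those at chr4:117849100-117849399 and chr4:117855297-117855596, on the plus strand, are shown, and the first, at chr4:117835008-117835307, held no match.
Slc36a4: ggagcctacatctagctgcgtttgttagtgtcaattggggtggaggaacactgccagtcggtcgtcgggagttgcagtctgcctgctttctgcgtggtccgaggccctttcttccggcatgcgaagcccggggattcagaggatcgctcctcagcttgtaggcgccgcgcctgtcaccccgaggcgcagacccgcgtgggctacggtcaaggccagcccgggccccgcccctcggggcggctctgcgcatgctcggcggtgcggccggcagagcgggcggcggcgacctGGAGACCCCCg
Slc38a2: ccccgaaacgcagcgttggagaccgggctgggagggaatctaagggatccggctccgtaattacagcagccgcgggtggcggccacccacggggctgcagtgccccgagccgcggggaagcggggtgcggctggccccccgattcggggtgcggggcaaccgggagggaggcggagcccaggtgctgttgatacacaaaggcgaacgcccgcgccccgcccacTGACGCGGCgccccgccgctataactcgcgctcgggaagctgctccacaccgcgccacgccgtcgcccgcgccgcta
Slc6a9, chr4:117849100-117849399: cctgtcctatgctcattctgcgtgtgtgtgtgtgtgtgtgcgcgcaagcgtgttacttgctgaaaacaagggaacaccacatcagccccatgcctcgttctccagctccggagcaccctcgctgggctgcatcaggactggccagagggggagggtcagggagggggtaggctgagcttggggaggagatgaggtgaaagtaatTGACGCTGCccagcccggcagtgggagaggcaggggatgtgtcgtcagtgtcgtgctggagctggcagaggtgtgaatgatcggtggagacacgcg
Slc6a9, chr4:117855297-117855596: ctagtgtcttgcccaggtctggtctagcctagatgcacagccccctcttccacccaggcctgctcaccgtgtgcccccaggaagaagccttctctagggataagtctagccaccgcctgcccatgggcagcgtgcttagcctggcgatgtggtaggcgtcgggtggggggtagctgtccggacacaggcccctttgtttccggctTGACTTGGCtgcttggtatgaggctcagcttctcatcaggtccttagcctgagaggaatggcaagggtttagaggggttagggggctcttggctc

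The Slc36a4 window held an NF-kB match that starts 39 bases after the start site. The Slc38a2 window held an ARE core match 27 bases before its start, and the later Slc6a9 windows held one 46 and 45 bases before theirs; the matches did not overlap another motif. Promoter windows were listed for 40 of the 55 genes, 59 windows in all, and none was listed for Slc38a1, Slc7a5 or Slc6a6. Of the 59 windows, 11.9% held the NF-kB consensus, 18.6% the ARE core and 6.78% CARE. Among all 32851 mouse windows the shares were 4.51%, 12.4% and 3.97%. Windows of 1 gene can overlap, so they are not independent. Overlapping windows of Slc7a7 both held the NF-kB consensus, and overlapping windows of Slc7a6 both held the ARE core. Whether the shares differ was not tested. A match is a description of the letters and not a site.

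Slc38a2 is a system A carrier of glutamine, alanine and other small neutral amino acids. From the probe sets used, it had the largest fall of the 55 genes in both genotypes. Its signal was 11.67, 11.69 and 11.62 in untreated WT cells and 10.07, 10.32 and 10.15 in stimulated WT cells. Untreated Nos2-/- cells gave 11.66, 11.79 and 11.64, and stimulated Nos2-/- cells 10.30, 10.28 and 10.24. Every stimulated array lay more than 1 unit under every untreated array of its genotype. The log2 fold change was -1.48 ± 0.07 (SE; 2.80-fold, adjusted p = 4.5e-10) in WT and -1.42 ± 0.07 (2.68-fold, adjusted p = 6.3e-10) in Nos2-/- cells. Its other probe sets also fell, but by less, with log2 fold changes of -0.35 and -0.30 in WT cells, so the size of the change depends on the probe set. With the mean of all probe sets its log2 fold change was -0.71 in WT and -0.70 in Nos2-/- cells. Slc7a6 fell further by that measure, with -1.515 and -1.558.

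Slc38a1, the other widely used system A carrier, fell by a similar amount. WT cells gave 9.42, 9.46 and 9.34 untreated and 8.19, 8.32 and 8.37 stimulated, and Nos2-/- cells 9.28, 9.43 and 9.38 untreated and 8.12, 8.11 and 7.67 stimulated. The log2 fold change was -1.11 ± 0.11 in WT (adjusted p = 5.2e-07) and -1.40 ± 0.11 in Nos2-/- cells (adjusted p = 4.3e-08). All 3 stimulated Nos2-/- arrays were under all 3 stimulated WT arrays, but the difference of -0.33 ± 0.11 did not pass the test (adjusted p = 0.137). Its second probe set fell as well, by 0.69 in WT and 0.79 in Nos2-/- cells on the log2 scale. Slc38a10, a carrier of glutamine, glutamate and aspartate, fell by 0.90 in WT and 0.84 in Nos2-/- cells, and the fitted changes of all its 7 probe sets were negative in WT cells, from -1.29 to -0.08.

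The rest of the Slc38 family did not follow these falls. Slc38a7, which exports glutamine from lysosomes, rose from a mean of 7.42 to 7.75 in WT cells and by the same step in Nos2-/- cells, a log2 fold change of 0.33 ± 0.06 in both (adjusted p = 1.8e-04 and 1.6e-04). Slc38a6 passed the test in WT cells only (0.20, adjusted p = 0.0436, against 0.15, adjusted p = 0.117, in Nos2-/- cells); the difference between the responses was -0.05 ± 0.11 and was not called. For Slc38a9, the lysosomal carrier that reports arginine to mTORC1, 7 probe sets went different ways. The brightest was not called (-0.10 in WT and 0.05 in Nos2-/- cells), 1 rose in both genotypes (0.30 and 0.28), and 1 fell in both (-0.88 and -1.04). A direction for Slc38a9 therefore depends on the probe set.

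Among the Slc7 light chains, carriers with like substrates were called in opposite directions. Slc7a5, the system L exchanger of large neutral amino acids such as leucine and tryptophan, gave 7.16, 7.38 and 7.32 in untreated and 6.17, 6.06 and 6.14 in stimulated WT cells. Nos2-/- cells gave 7.14, 7.26 and 7.50, then 6.20, 6.23 and 6.04. The groups did not overlap, and the fall was 1.16 ± 0.09 in WT (log2; 2.24-fold, adjusted p = 9.4e-08) and 1.14 ± 0.09 in Nos2-/- cells (adjusted p = 1.0e-07). Slc7a8, the other system L exchanger of this family, instead rose. Its signal was 9.91, 9.97 and 10.07 in untreated and 10.22, 10.31 and 10.41 in stimulated WT cells, a log2 fold change of 0.33 ± 0.08 (adjusted p = 0.00236), with 0.37 ± 0.08 in Nos2-/- cells (adjusted p = 9.7e-04).

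The same held for the system y+L carriers, which exchange cationic for neutral amino acids. Slc7a6 gave 8.26, 8.50 and 8.25 in untreated and 7.21, 7.46 and 7.35 in stimulated WT cells, a log2 fold change of -0.999 ± 0.105 (adjusted p = 1.5e-06), with -1.06 ± 0.11 in Nos2-/- cells (adjusted p = 7.9e-07). Its other probe set fell further, with log2 fold changes of -2.03 and -2.06, so the size again depended on the probe set. Slc7a7, the carrier mutated in lysinuric protein intolerance, gave 8.20, 8.14 and 8.42 in untreated and 8.83, 8.60 and 8.89 in stimulated WT cells, a rise of 0.52 ± 0.10 (adjusted p = 3.2e-04) that Nos2-/- cells matched with 0.52 ± 0.10 (adjusted p = 3.0e-04). Slc7a6os, whose gene lies next to Slc7a6 and codes for no carrier, fell by 0.67 in WT and 0.52 in Nos2-/- cells, and its second probe set gave -1.62 and -1.89. Slc3a2, the heavy chain that the 4 light chains Slc7a5, Slc7a6, Slc7a7 and Slc7a8 share, rose from 12.10 ± 0.08 to 12.64 ± 0.04 in WT cells (mean ± SD, n = 3; adjusted p = 5.4e-06) and from 12.11 ± 0.08 to 12.48 ± 0.03 in Nos2-/- cells (adjusted p = 2.4e-04).

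**Figure D2:**
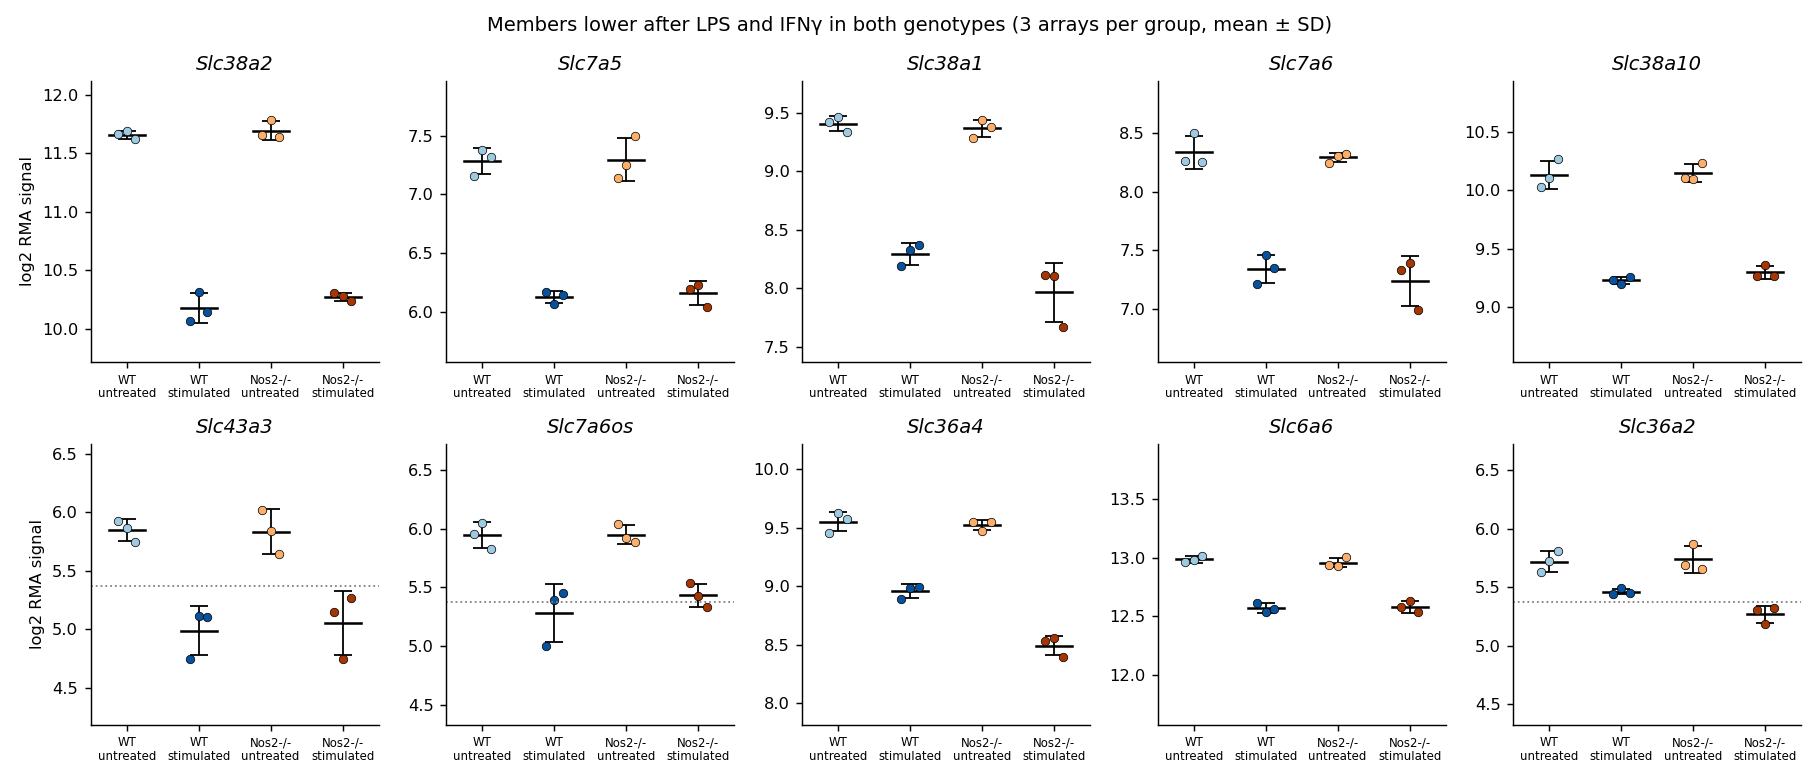
Log2 RMA signal of the 10 genes that fell in both genotypes; points are arrays, bars the mean and SD of 3, every panel spans 2.4 units, and the dotted line is the background level of 5.373. In each panel all stimulated arrays lie under all untreated arrays of their genotype, and for Slc36a4, Slc38a1 and Slc36a2 the stimulated Nos2-/- arrays also lie under the stimulated WT arrays, a difference called for Slc36a4 alone.

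In Slc6, the taurine carrier Slc6a6 had the brightest probe set of the 55 genes and fell. It gave 12.96, 12.98 and 13.02 in untreated and 12.61, 12.53 and 12.56 in stimulated WT cells, a log2 fold change of -0.42 ± 0.06 (1.33-fold, adjusted p = 2.6e-05), and -0.38 ± 0.06 in Nos2-/- cells (adjusted p = 6.2e-05). Of its 4 probe sets, the 2 dimmer ones were not called, with -0.12 and -0.01 in WT and 0.06 and 0.14 in Nos2-/- cells. With the mean of the 4 the change was -0.24 in WT (adjusted p = 0.00687) and -0.12 in Nos2-/- cells (adjusted p = 0.126), where the call was lost. Slc6a6 was the only one of the 20 Slc6 genes called lower from the probe set used. Slc6a13, a carrier of GABA and taurine, rose by 0.43 ± 0.10 in WT and 0.64 ± 0.10 in Nos2-/- cells. Slc6a2, the noradrenaline carrier, rose by 0.56 ± 0.09 and 0.38 ± 0.09. The other 3 probe sets of Slc6a2 gave 0.31, 0.28 and 0.03 in WT cells, the first of them called, and none was called in Nos2-/- cells. With the mean of its probe sets Slc6a2 was at background and its change was 0.29 in WT and 0.22 in Nos2-/- cells. From the probe sets used, both genes stayed within 1 unit of the background level, at group means from 5.40 to 6.08. Slc6a3, the dopamine carrier, was called in WT cells only (0.25, adjusted p = 0.022, against 0.19, adjusted p = 0.0741, in Nos2-/- cells). Its arrays overlapped in WT cells, and the difference between its responses, -0.06 ± 0.12, was not called. Its group means ran from 5.17 to 5.47, on both sides of the background level. Slc6a20a, Slc6a16, Slc6a7 and Slc6a15, also called higher in 1 or both genotypes, were at background, and the glycine carrier Slc6a9 is described with the genotypes.

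Of the other families, Slc43a3, a carrier of purine bases, fell by 0.86 ± 0.14 in WT and 0.78 ± 0.14 in Nos2-/- cells (adjusted p = 1.0e-04 and 2.3e-04), ending at means under the background level. Slc43a1, a carrier of large neutral amino acids, was called higher in WT cells only (0.32, adjusted p = 0.0388), with overlapping arrays. Slc36a2, which carries glycine and proline, fell by 0.26 in WT (adjusted p = 0.00896) and 0.47 in Nos2-/- cells (adjusted p = 7.9e-05), while Slc36a3 was called higher in Nos2-/- cells only (0.30, adjusted p = 0.0202). The lowest group means of Slc43a1 (5.12), Slc36a2 (5.27) and Slc36a3 (5.37) were also under the background level. Slc36a1, the lysosomal proton-coupled carrier, gave 0.08 and 0.04 and was not called. In Slc1, the small neutral amino acid carrier Slc1a4 was not called (0.17 and -0.02), and Slc1a1, a glutamate carrier at background, was called higher in WT cells only (0.30, adjusted p = 0.0168). No difference between the responses was called for any of these genes.

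Among the 25 genes at background, 6 were called higher in WT and 7 in Nos2-/- cells, and 0 lower in either, at an unadjusted p under 0.05 as well. Over all genes, whatever their level, 29.6% rose and 28.4% fell in WT cells. In Nos2-/- cells these shares were 26.3% and 28.2%. Shares for all genes at background are not given here, so the lack of falls cannot be read as particular to these genes. The called ones were Slc6a20a (0.60 in WT, 0.58 in Nos2-/- cells), Slc7a15 (0.48 and 0.59), Slc7a10 (0.28 and 0.30) and Slc6a16 (0.26 and 0.20) in both genotypes, Slc1a1 and Slc6a7 in WT cells and Slc7a14, Slc6a15 and Slc38a4 in Nos2-/- cells. Their signals lie in the range of the receptor genes that set the background. The median over the 18193 genes, each read from 1 probe set, was lower by 0.10 in stimulated WT and 0.12 in stimulated Nos2-/- arrays than in untreated ones. When each array was centred on that median, 25 of the 55 genes rose and 9 fell in WT cells, and 26 rose and 10 fell in Nos2-/- cells. Over all genes the counts were then 8316 higher and 4527 lower in WT and 8090 and 4377 in Nos2-/- cells, so the number of rises grew across the array as well. Of the calls made without centring, 24 of 25 stayed in WT cells, where the fall of Slc36a2 was lost, and all 23 in Nos2-/- cells. With quantile normalisation 20 of 25 and 20 of 23 stayed, and those lost were rises, Slc1a1, Slc43a1, Slc6a16, Slc6a3 and Slc7a10 in WT and Slc38a4, Slc6a15 and Slc6a16 in Nos2-/- cells.

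**Figure D3:**
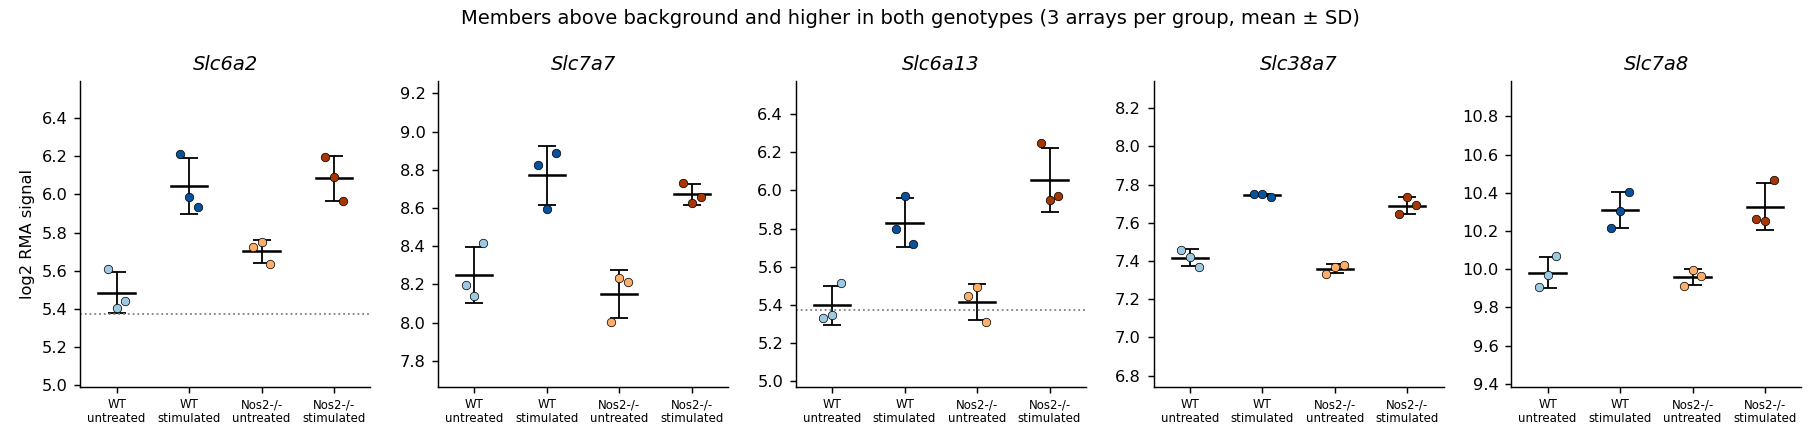
Log2 RMA signal of the 5 genes above background that rose in both genotypes; points are arrays, bars the mean and SD of 3, every panel spans 1.6 units, and the dotted line is the background level of 5.373. The log2 fold changes lie between 0.33 and 0.64, and Slc6a2 and Slc6a13 sit close to background.

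The comparison of genotypes asked which of these genes differed between Nos2-/- and WT cells. Between stimulated Nos2-/- and stimulated WT cells 2 of the 55 genes were called, both lower in Nos2-/- cells, Slc36a4 and Slc6a9, while 0 were higher. Over all genes 1.91% were lower and 1.03% higher in that comparison. At an unadjusted p under 0.05, 5 were lower and 2 higher. Between the untreated genotypes 0 were called in either direction, beside 0.0055% of all genes higher and 0.0055% lower, with 1 in each direction at an unadjusted p under 0.05 and 0 in the linear model without moderation. For the difference between the responses 0 were called by limma, beside 0.302% of all genes higher and 0.676% lower, with 1 higher and 2 lower at an unadjusted p under 0.05, and again 0 without moderation.

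Slc36a4, which carries proline and tryptophan with high affinity, fell in both genotypes and ended lower in Nos2-/- cells. It gave 9.46, 9.62 and 9.58 in untreated and 8.89, 8.99 and 8.99 in stimulated WT cells, and 9.55, 9.47 and 9.55 in untreated and 8.53, 8.55 and 8.40 in stimulated Nos2-/- cells. The untreated groups overlapped, and all 3 stimulated Nos2-/- arrays lay under all 3 stimulated WT arrays. The fall was 0.60 ± 0.07 in WT (log2; 1.51-fold, adjusted p = 3.7e-06) and 1.03 ± 0.07 in Nos2-/- cells (2.04-fold, adjusted p = 1.0e-08). Stimulated cells differed by -0.46 ± 0.07 (1.38-fold, adjusted p = 0.00159), and untreated cells by -0.03 ± 0.07. Set against each other, the 2 responses differed by -0.43 ± 0.10, short of the threshold (adjusted p = 0.0528). The gene has 1 probe set, so no second measurement was at hand; its promoter window, with the NF-kB match, is printed above.

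Slc6a9, the carrier that takes up glycine, rose in WT cells and was not called in Nos2-/- cells. It gave 6.30, 6.26 and 6.29 in untreated and 6.74, 6.81 and 6.58 in stimulated WT cells, against 6.33, 6.27 and 6.43 in untreated and 6.30, 6.40 and 6.32 in stimulated Nos2-/- cells. Only the stimulated WT arrays stood above the other groups. The log2 fold change was 0.42 ± 0.07 in WT (adjusted p = 1.5e-04) and -0.00 ± 0.07 in Nos2-/- cells (95% interval -0.16 to 0.15), and stimulated Nos2-/- cells were lower than stimulated WT cells by 0.37 ± 0.07 (adjusted p = 0.011). The difference between the responses was -0.43 ± 0.10 (adjusted p = 0.0733). With quantile normalisation Nos2-/- cells were called higher as well (0.20, adjusted p = 0.0292). The second probe set was called in neither comparison, with 0.14 in WT and 0.06 in Nos2-/- cells and -0.09 between the stimulated genotypes (adjusted p = 0.708). Without the second stimulated WT array the genotype call was lost (adjusted p = 0.0554).

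Slc6a8, the creatine carrier, gave unlike answers from its 2 probe sets. The brighter one, used in all counts, was not called, with 0.04 in WT and -0.03 in Nos2-/- cells. The other gave 8.78, 8.72 and 8.82 in untreated and 8.29, 8.31 and 8.23 in stimulated WT cells, and 8.86, 8.81 and 8.94 in untreated and 7.89, 8.05 and 7.96 in stimulated Nos2-/- cells. It fell by 0.50 in WT and 0.90 in Nos2-/- cells and was lower by 0.31 in stimulated Nos2-/- than in stimulated WT cells (adjusted p = 0.0257, over 34945 probe sets). The difference between its responses, -0.40, did not pass the test (adjusted p = 0.0816). This probe set was singled out after its values were seen.

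**Figure D4:**
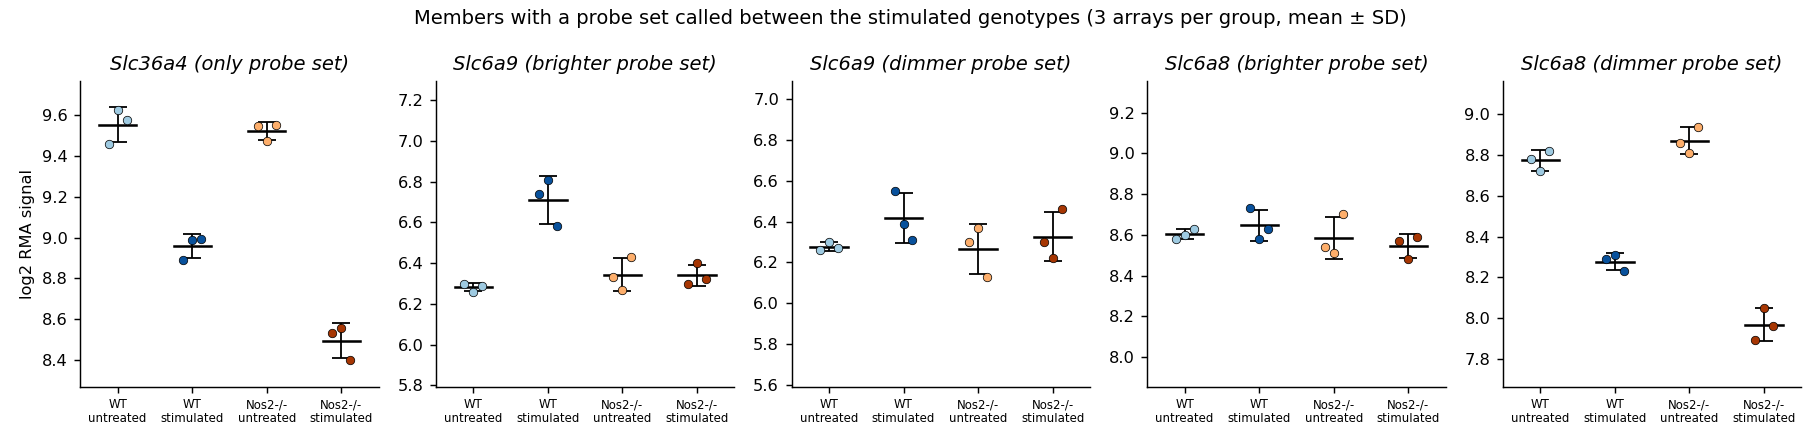
Log2 RMA signal of the probe sets of Slc36a4, Slc6a9 and Slc6a8 by group; points are arrays, bars the mean and SD of 3, and every panel spans 1.5 units. Slc36a4 and the dimmer probe set of Slc6a8 end lower after stimulation in Nos2-/- cells than in WT cells, and the rise of Slc6a9 in WT cells appears in its brighter probe set.

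The genes that work beside these carriers were read from lists chosen for their roles. Of 25 measured heavy chains and amino acid carriers of other families, 7 of them at background, 10 rose and 8 fell in WT cells, 7 rose and 7 fell in Nos2-/- cells, and limma called 0 between the stimulated genotypes (3 were lower at an unadjusted p under 0.05). Over all genes 29.6% rose and 28.4% fell in WT and 26.3% and 28.2% in Nos2-/- cells. The counts in Nos2-/- cells lay near these shares. In WT cells the share of the list that rose lay above that of all genes, a difference that was not tested. The median log2 fold change was 0.10 in WT and 0.11 in Nos2-/- cells. Slc15a3, a lysosomal carrier of histidine and small peptides, rose by 2.49 ± 0.08 in WT and 2.60 ± 0.08 in Nos2-/- cells. Its relative Slc15a4 gave -1.36 and -1.27, both called lower. In mitochondria, the aspartate and glutamate carriers went opposite ways, with Slc25a12 rising (0.91) and Slc25a13 falling (-1.64) in WT cells, and the glutamate carrier Slc25a22 rose by 1.36. The mitochondrial serine carrier Sfxn1 fell by 1.58 and the lysosomal cystine exporter Ctns by 1.18 in WT cells.

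Another list held genes of mTORC1, the kinase complex that couples nutrient supply to growth, genes of its upstream regulators, and the separate sensor Gcn2. Not all of its genes sense amino acids. Of the 36 measured, 19 fell and 4 rose in WT cells and 20 fell and 4 rose in Nos2-/- cells. The shares over all genes were 28.4% lower and 29.6% higher in WT and 28.2% lower and 26.3% higher in Nos2-/- cells. The median log2 fold change of the 36 was -0.23 in WT and -0.22 in Nos2-/- cells. All 36 were above background, unlike the genes of the whole array. Sesn1, a leucine-binding inhibitor of the pathway, fell from 12.08 ± 0.01 to 6.76 ± 0.08 in WT cells and from 11.90 ± 0.06 to 6.57 ± 0.31 in Nos2-/- cells (mean ± SD, n = 3). Folliculin (Flcn) fell by 1.26, the uncharged-tRNA kinase Gcn2 (Eif2ak4) by 1.10, leucyl-tRNA synthetase (Lars) by 1.03 and Rptor by 0.91 in WT cells. Sesn2, the relative of Sesn1 that ATF4 induces, rose by 0.61 ± 0.07 in WT and 0.36 ± 0.07 in Nos2-/- cells. It was the only gene of the list called between the stimulated genotypes, lower in Nos2-/- cells by 0.47 ± 0.07 (adjusted p = 0.00189). Between the untreated genotypes 0 genes of the list were called, with 7 lower in Nos2-/- cells at an unadjusted p under 0.05. For the difference between the responses 0 were called as well, so the lower Sesn2 signal cannot be put down to its response alone. Of the 6 carriers left out by the rule, 3 rose and 3 fell in each genotype. Between the stimulated genotypes 1 of the 6 was higher and 1 lower in Nos2-/- cells, beside 1.03% and 1.91% of all genes. For the difference between the responses 0 were higher and 1 was lower, beside 0.302% and 0.676% of all genes.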

How the data were processed

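Total RNA of the 12 cultures was hybridised to Affymetrix mouse genome arrays. The authors ran RMA, which corrects background, quantile-normalises and summarises probes, in Partek (version not given in the sources used here), and the deposited table holds the resulting log2 values. Per-gene depth does not apply to arrays; their number, 3 per group, limits the precision. Probe sets were named from the platform annotation: of 45037 without controls, 34945 named 1 gene, 932 several and 9160 none. Groups came from the sample titles.

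Tests used limma 3.58.1 in R 4.3.3 (a mean per group over all 12 arrays, contrasts, eBayes, two-sided), Benjamini-Hochberg adjusted over 18193 genes and called at 0.05 with no minimum fold. The script was tested on simulated data. Errors of fold changes are standard errors. The rule named every gene called between genotypes or for the difference of responses, the 12 largest called rises and falls of each response, the brightest gene of each family and genes whose probe sets were called both ways. Members, lists and tests were chosen with earlier results of these data known.

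Alternatives were the mean of all probe sets, leaving out _s_at and _x_at probe sets or dim genes, median centring, quantile normalisation, a replicate block, fits of the compared arrays alone, no moderation, an intensity trend, the methods' thresholds (1.5-fold, false discovery rate 0.5) and leaving out each array.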

Additional observations from a re-analysis of the deposited data

How the results depend on the processing

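Of 22 alternatives, 12 of which left out 1 array, most moved the counts little. The number of genes higher was 5 in WT and 3 in Nos2-/- cells without genes at or under the median signal (fewer genes tested), 25 and 26 with arrays centred on their median, and 1 and 2 at the methods' thresholds, against 15 and 13 as reported. Leaving out 1 array gave 12 to 18 genes higher and 10 to 11 lower in WT cells, and 10 to 14 higher and 10 to 11 lower in Nos2-/- cells. Between the stimulated genotypes, 1 gene was lower with the mean of all probe sets, 1 with only the compared arrays and 0 at the methods' thresholds, since neither Slc36a4 nor Slc6a9 reaches 1.5-fold. Leaving out 1 array gave 1 to 2 lower and 0 to 1 higher; without the second stimulated WT array Slc6a9 was lost and Slc6a12, a carrier of betaine and GABA, was called higher (0.37, adjusted p = 0.014). For the difference between the responses, 1 gene was lower with the mean of all probe sets, 1 with quantile normalisation and 1 with an intensity trend (Slc36a4 each time, adjusted p 0.0159 to 0.0367), 2 without dim genes (Slc36a4 and Slc6a9), and 0 to 1 with 1 array left out (Slc6a9 without the third stimulated WT array, adjusted p = 0.0384); the causes were not tested. The fit of only the compared arrays cannot give that difference. The Slc6a9 response in Nos2-/- cells, not called as reported, changed from -0.00 to 0.202 with quantile normalisation (adjusted p = 0.0292).

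Slc36a4 stayed lower between the stimulated genotypes at adjusted p from 0.000162 to 0.0268 and fell short only of the fold of the methods' thresholds. For Slc6a9 the adjusted p ran from 0.00356 to 0.0929, past 0.05 with the mean of all probe sets, with only the compared arrays and without the second stimulated WT array. With the replicate number as a block, 15 genes rose and 10 fell in WT cells and 13 rose and 10 fell in Nos2-/- cells. In that fit 2 were lower between the stimulated genotypes. The deviations of same-numbered arrays correlated at -0.26 to 0.211. These values cannot show whether same-numbered cultures were prepared together, and the titles do not say. Of 51 single-gene results, 20 kept their direction and side of the threshold in every alternative.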
